A study of Mus musculus with 32 samples.

Results

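The 10 genes described here move, store or release iron, or protect membranes from iron-driven lipid peroxidation. They were taken by symbol from 3 deposited tables of estimated RNA-seq counts, and each of the 10 was found under its Ensembl identifier among 74021 genes (microglia sorted by LAG-3), 74016 genes (microglia by stage) and 74021 genes (spinal cord). All 10 also passed the filter on low counts in each table. The ferritin chains *Fth1* (heavy, ENSMUSG00000024661) and *Ftl1* (light, ENSMUSG00000050708) store iron. *Tfrc*, *Steap3*, *Slc11a2* and *Slc11a1* bring iron in or move it out of endosomes and phagosomes, and *Slc40a1* exports it. *Hmox1* frees iron from haem, *Ncoa4* delivers ferritin to the lysosome, and *Gpx4* reduces lipid peroxides.

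LAG-3 is an inhibitory immune checkpoint receptor that microglia also carry, and the SOD1G93A mouse, a model of amyotrophic lateral sclerosis, carries a human mutant SOD1 transgene. The first experiment compared CD11b+/CD45int microglia sorted from lumbar spinal cord: 4 libraries from WT mice without the transgene, and 5 libraries each of LAG-3-low and LAG-3-high cells of SOD1G93A mice at P140, the late symptomatic stage. The second compared SOD1G93A microglia with (LAG-3+/+) and without LAG-3 (LAG-3-/-) at P120 and at P140, with 3 libraries in each of the 4 groups. The last compared whole lumbar spinal cord at P140, with 3 LAG-3+/+ and 3 LAG-3-/- libraries of SOD1G93A mice. Every group of the second and last experiments carried the SOD1G93A transgene, so neither had a non-transgenic control. The LAG-3-/- mice had a targeted disruption of *Lag3* in all cells, not in microglia alone. The sources used here did not state the age of the WT mice, nor whether a library came from 1 mouse or several. P-values therefore measure the spread between these libraries, which may in part be technical.

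Microglia take up iron bound to transferrin, and they also recover iron from engulfed cells and haem. Iron that is not used is held in ferritin, a shell of heavy chains, which oxidize iron, and light chains, which help to lay it down as a mineral core. NCOA4 returns this iron to the cell by taking ferritin to the lysosome, and ferroportin, the product of *Slc40a1*, lets iron leave. An excess of reactive iron drives lipid peroxidation and ferroptosis, a form of cell death that GPX4 counters with glutathione. Iron-rich, ferritin-loaded microglia are a known feature of several neurodegenerative diseases.

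Several transcripts of this group are also under a shared control that reads cellular iron. Iron regulatory proteins bind a small RNA hairpin, the iron-responsive element, when iron is scarce. In a 5′ UTR the bound hairpin blocks translation, as in ferritin, and in the 3′ UTR of *Tfrc* it protects the mRNA from decay. An mRNA count therefore does not report the first of these controls. The elements found in the canonical transcripts of the members are printed here, 5′ to 3′ on the sense strand of GRCm39, with the loop CAGTGN in capitals. Lower case holds the bulged C, the 5 paired bases on each side of the loop and 5 outer bases at each end, which were not required to pair.
*Fth1*, 5′ UTR, exon 1 of 4, chr19:9960097-9960123, plus strand: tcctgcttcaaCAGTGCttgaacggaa
*Ftl1*, 5′ UTR, exon 1 of 4, chr7:45109204-45109230, minus strand: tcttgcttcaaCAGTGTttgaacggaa
*Slc40a1*, 5′ UTR, exon 1 of 8, chr1:45964626-45964652, minus strand: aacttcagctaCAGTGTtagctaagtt
*Tfrc*, 3′ UTR, exon 19 of 19, chr16:32450038-32450064, plus strand: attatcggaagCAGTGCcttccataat
*Tfrc*, 3′ UTR, exon 19 of 19, chr16:32450417-32450443, plus strand: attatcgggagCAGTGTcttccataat
*Tfrc*, 3′ UTR, exon 19 of 19, chr16:32450482-32450508, plus strand: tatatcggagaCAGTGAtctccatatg
*Tfrc*, 3′ UTR, exon 19 of 19, chr16:32450529-32450555, plus strand: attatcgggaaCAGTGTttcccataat
The search letters were CNNNNNCAGTGN with 5 stem pairs, G-T pairs allowed, on the sense strand of the canonical transcript only, and 289 of 21770 protein-coding transcripts (1.33%) held such a site. A match is a description of the sequence. The canonical transcripts of the other 6 members held no match to these letters. Other transcripts and looser hairpins were not searched, so this does not show that those members lack an element.

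All 10 are protein-coding genes, placed here on GRCm39. *Fth1* lies at chr19:9957911-9962462 and *Ftl1* at chr7:45107367-45109308. *Slc40a1* (ENSMUSG00000025993) at chr1:45947211-45965683, *Slc11a1* (ENSMUSG00000026177) at chr1:74414303-74425448 and *Steap3* (ENSMUSG00000026389) at chr1:120118487-120200435 share a chromosome. *Tfrc* (ENSMUSG00000022797) lies at chr16:32427556-32451612, *Hmox1* (ENSMUSG00000005413) at chr8:75820241-75827217 and *Slc11a2* (ENSMUSG00000023030) at chr15:100285776-100322953. *Ncoa4* (ENSMUSG00000056234) lies at chr14:31881822-31902234 and *Gpx4* (ENSMUSG00000075706) at chr10:79883000-79892273.

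The libraries totalled 9403286 to 22850356 counts in the LAG-3-sorted table, 23981240 to 49512341 in the stage table and 19429873 to 26994340 in the spinal cord table. Levels are TMM-scaled CPM, the counts of a library brought to a fixed total, and levels of different genes are compared only as CPM per kilobase of the canonical transcript. *Lag3*, the sorted and targeted gene, averaged 4.61 CPM (WT), 43.5 CPM (LAG-3-low) and 169 CPM (LAG-3-high). In LAG-3-/- libraries its means were 0.292 CPM at P120 and 0.173 CPM at P140, against 59.3 and 26.1 CPM in LAG-3+/+. In spinal cord it fell from 59.8 to 5.61 CPM. A list of 7 microglial markers, among them *Tmem119*, *P2ry12* and *Cx3cr1*, summed to between 7241 and 22984 CPM in every sorted library, against 460.4 to 730.4 CPM in spinal cord. Genes of neutrophils, a list of 10 with *S100a8*, *S100a9* and *Ngp*, summed to 22607 to 65629 CPM in LAG-3-low, 5996 to 70478 CPM in WT and 3.48 to 9.60 CPM in LAG-3-high libraries, although the sort was for microglia.

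In LAG-3-high microglia the ferritin pair stood above LAG-3-low microglia, as did the metal transporters *Slc11a1* and *Slc11a2*. The comparison asks how microglia with much LAG-3 on their surface differ from those with little, within SOD1G93A mice. *Fth1* and *Ftl1* together with *Slc11a2* passed both thresholds of this table in edgeR's quasi-likelihood test, a Benjamini-Hochberg adjusted p under 0.1 over 16508 genes and a log2 fold change of more than 1 in size. Of the 10 members 3 rose and none fell, while 3.49% of all genes were called, 0.818% higher and 2.67% lower (135 and 441 genes, or 35 and 633 without TMM scaling, which moved the median of all genes to -0.40). The median log2 fold change was 0.86 over the members and -0.02 over all genes tested. At any fold, 4 members had an adjusted p under 0.1, against 4.39% of all genes.

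*Fth1* measured 9950, 9223, 8485, 8484 and 8619 CPM in the 5 LAG-3-high libraries, against 3334, 2795, 2842, 3515 and 2923 CPM in the LAG-3-low libraries. Every LAG-3-high library was thus above every LAG-3-low library, with means of 8952 ± 636 CPM (SD, n = 5) and 3082 ± 322 CPM (SD, n = 5). The difference on the log2 scale was 1.54 ± 0.26 (SE), and its edgeR adjusted p was 0.00489. *Ftl1* measured 9192, 8780, 8638, 8361 and 9257 CPM in LAG-3-high and 4274, 4293, 3785, 3665 and 3787 CPM in LAG-3-low libraries. Its groups did not overlap either, and its log2 fold change was 1.16 ± 0.29 (edgeR adjusted p = 0.0454). The adjusted p of *Ftl1* rose above 0.1 when LAG-3-low replicate 3 (0.118) or 4 (0.119), or LAG-3-high replicate 1 (0.103) or 5 (0.102), was left out. It was also above 0.1 with replicate number added to the fit as a block. Without TMM scaling, with the median of all genes at -0.40, *Fth1* changed by 1.16 (adjusted p = 0.0113) and was still called, and *Ftl1* changed by 0.78 (0.128) and was not.

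*Slc11a2* encodes DMT1, which carries ferrous iron out of endosomes. It measured 115, 103, 110, 103 and 87.7 CPM in LAG-3-high and 60.8, 37.7, 37.1, 60.0 and 59.9 CPM in LAG-3-low libraries, again without overlap. Its log2 fold change of 1.02 ± 0.28 lay just past the fold minimum with an edgeR adjusted p of 0.0701, and leaving out 1 library in turn lost the call in 10 of 14 fits (adjusted p 0.0134 to 0.199). The call was also lost with replicate number as a block in the fit. *Slc11a1* encodes NRAMP1, which pumps divalent metals out of the phagosome of macrophages. It averaged 774 ± 46.5 CPM in LAG-3-high and 394 ± 48.9 CPM in LAG-3-low libraries (SD, n = 5 each). Its log2 fold change of 0.97 ± 0.18 with an edgeR adjusted p of 0.00812 fell just under the fold minimum, so it was not called, although it passed at 1.02 without LAG-3-low replicate 3 and at 1.01 without replicate 5.

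The genes of uptake, export and turnover did not follow the ferritins past the test. *Ncoa4* measured 157, 159, 172, 144 and 161 CPM in LAG-3-high and 183, 217, 314, 210 and 212 CPM in LAG-3-low libraries. All LAG-3-high values were lower, but the log2 fold change of -0.52 ± 0.26 had an edgeR adjusted p of 0.475. *Slc40a1* averaged 130 CPM in LAG-3-high against 209 CPM in LAG-3-low libraries (log2 fold change -0.69 ± 0.51, adjusted p = 0.717). *Tfrc*, the transferrin receptor, averaged 19.0 and 26.8 CPM (-0.50 ± 0.98, adjusted p = 0.958). *Hmox1* averaged 105 and 59.2 CPM (0.82 ± 0.48, adjusted p = 0.573), and *Gpx4* averaged 217 and 158 CPM (0.45 ± 0.27, adjusted p = 0.588). *Steap3*, the reductase that turns ferric into ferrous iron in endosomes, was near its detection limit with 1.49 to 6.20 CPM in LAG-3-high and 0 to 3.29 CPM in LAG-3-low libraries. Counted by overlap alone, 4 members lay higher and 1 lower in LAG-3-high without overlap, against 15.5% of all genes in either direction.

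**Figure D1:**
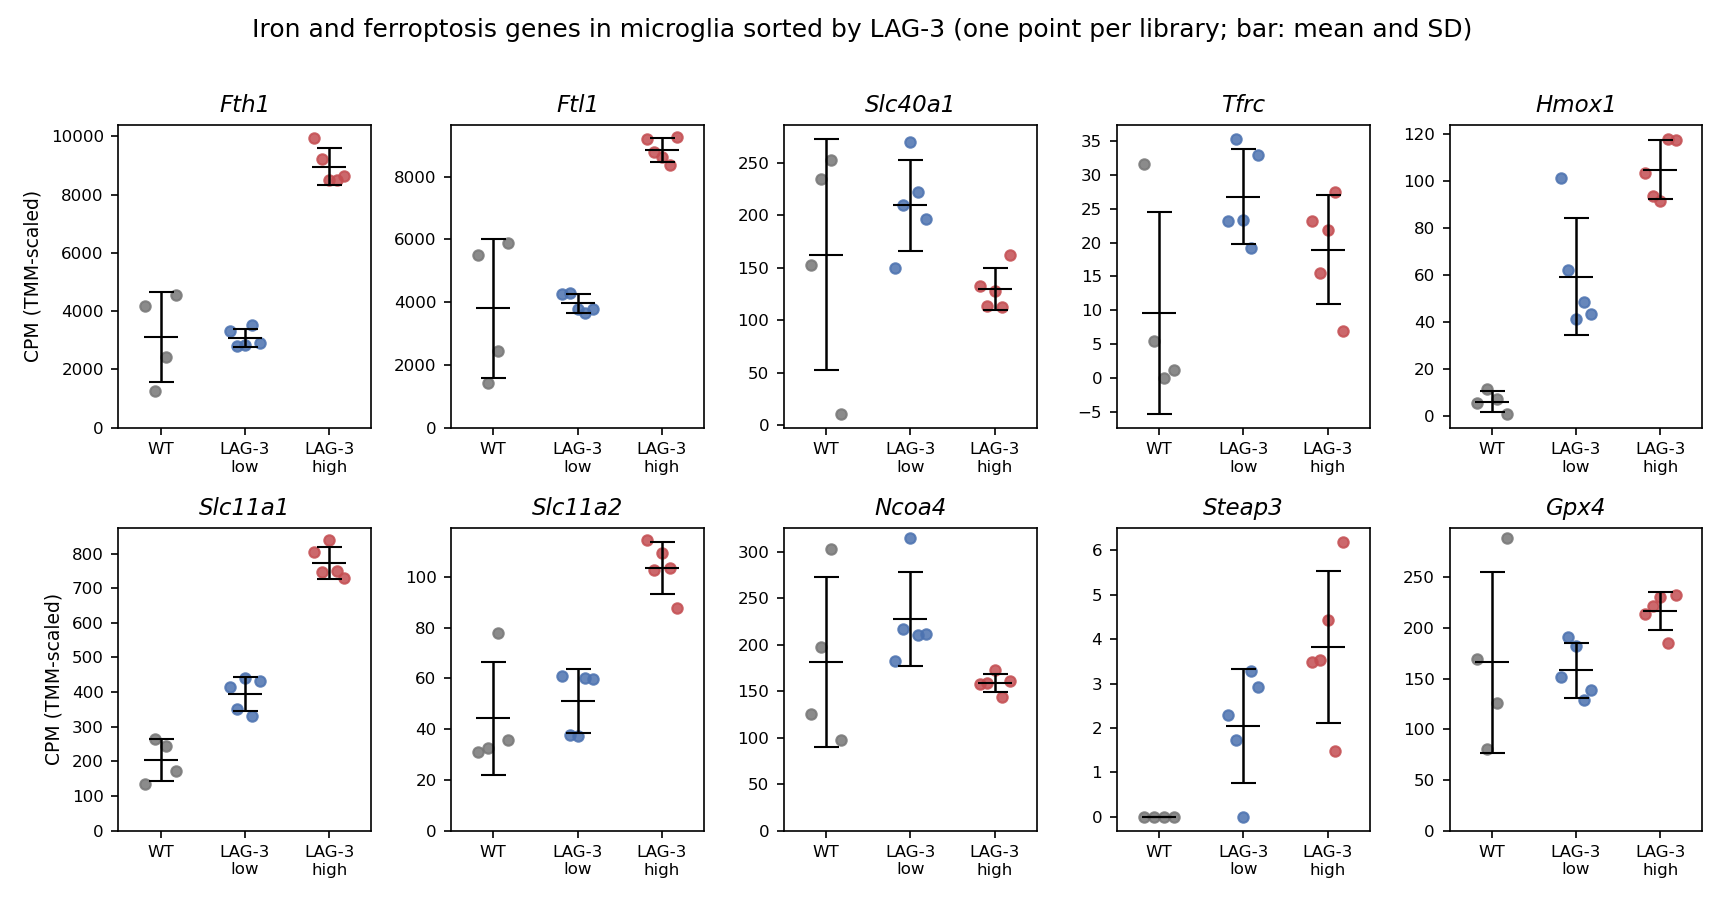
Levels of the 10 genes in CPM after TMM scaling (y axes, linear and scaled per gene) in microglia of WT mice and in the LAG-3-low and the LAG-3-high sort (x axes), with 1 point per library and a bar for the mean and SD. Both ferritins of LAG-3-high libraries sit between 8361 and 9950 CPM, above all LAG-3-low and WT libraries, while *Hmox1* is low only in WT, at 0.698 to 11.2 CPM.

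Markers of other cells moved with this comparison. Every one of the 10 neutrophil genes was called, with lower levels in LAG-3-high. The 3 monocyte markers summed to 0.0667 to 5.75 CPM in LAG-3-high against 154 to 381 CPM in LAG-3-low, and 6 border macrophage markers to 1.21 to 8.23 against 48.6 to 237 CPM. The defining markers *Ly6g* and *Ly6c2*, and *Cd163* and *Lyve1*, were at 0 in all 5 LAG-3-high libraries. The microglial list summed to 9617 to 10693 CPM in LAG-3-high and 7241 to 12159.5 CPM in LAG-3-low. Other lists were higher in LAG-3-high. The 5 astrocyte markers summed to 125 to 144 against 49.4 to 71.9 CPM, with 1 of 3 tested genes called higher. The 5 endothelial markers summed to 73.6 to 111 against 38.7 to 71.3 CPM, with 0 of 2 tested genes called. Of 2 tested neuron genes 1 was called higher. The part of these cells in the members' differences was not tested, and in bulk libraries fewer cells of a type and less RNA per cell cannot be told apart. All 8 erythroid markers, globins included, were at 0 in every LAG-3-high library.

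Against WT microglia, LAG-3-high cells had higher ferritin, *Hmox1*, *Slc11a1*, *Slc11a2* and *Steap3*. Here 6 members rose and none fell, where 27.0% of all genes were called, 12.1% higher and 14.9% lower (2000 and 2464 genes, or 1488 and 3234 without TMM scaling). The median over the members was 1.22 on the log2 scale, also with *Steap3* at its bound, against -0.08 over all genes. *Hmox1*, haem oxygenase 1, measured 5.20, 11.2, 6.95 and 0.698 CPM in the WT libraries and 103, 93.7, 91.6, 118 and 117 CPM in the LAG-3-high libraries. The groups were far apart, with a log2 fold change of 4.13 ± 0.59 and an edgeR adjusted p of 0.000345. *Slc11a1* measured 133, 263, 245 and 173 CPM in WT and at least 729 CPM in every LAG-3-high library (log2 fold change 1.92 ± 0.20, adjusted p = 2.38e-05). *Steap3* had no count in any WT library and was at least 19.9-fold higher in LAG-3-high, taking 3 counts per WT library as the floor (edgeR adjusted p = 0.00408).

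Markers of other cells, and of microglia, also moved with the contrasts against WT. In LAG-3-high 9 of 10 neutrophil, 2 of 3 monocyte and 3 of 5 tested border macrophage genes were called lower. In LAG-3-low 3 neutrophil genes and 1 monocyte gene were called higher. Of the 7 microglial genes 6 were called lower in each, and their sum was 19682 to 22984 CPM in WT. The neutrophil sum was 5996, 36515, 9260 and 70478 CPM in WT and 22607 to 65629 CPM in LAG-3-low. The part of these markers' cells in the members' changes against WT was not tested.

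The ferritin genes were uneven among WT libraries. *Fth1* measured 4161, 1256, 2421 and 4569 CPM in WT, and *Ftl1* measured 5491, 1436, 2434 and 5898 CPM. Replicate 2, also the shallowest library, was lowest for both. All WT values still lay below all LAG-3-high values, with log2 fold changes of 1.53 ± 0.28 (edgeR adjusted p = 0.00226) for *Fth1* and 1.21 ± 0.31 (0.0148) for *Ftl1*. Without WT replicate 2 the change of *Ftl1* was 0.96 with an adjusted p of 0.00632, under the fold minimum. *Slc11a2* changed by 1.23 ± 0.30 (adjusted p = 0.0116), with 31.1, 32.7, 77.8 and 35.7 CPM in the WT libraries. Without WT replicates 2 and 4, a choice made after seeing the data, its change was 0.94. Those replicates had the highest neutrophil sums, and replicate 3, the highest WT library for *Slc11a2*, stayed in that fit. The part of neutrophils in this change was not tested. *Gpx4*, *Tfrc*, *Slc40a1* and *Ncoa4* were not called, with log2 fold changes of 0.38, 0.98, -0.32 and -0.19. *Tfrc* measured 31.6, 5.49, 0 and 1.27 CPM in WT, and without the high replicate 1 it was called in LAG-3-high (3.05, adjusted p = 0.0589) and in LAG-3-low (3.59, 0.0447).

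Between LAG-3-low and WT, *Hmox1* and *Steap3* were called higher, and the ferritins were not. These were 2 of 10 members, against 21.9% of all genes called (1793 genes higher, 1821 lower), and the members' median was 0.35 against 0.04. *Hmox1* measured 101, 62.2, 41.1, 48.6 and 43.2 CPM in LAG-3-low, all above WT (log2 fold change 3.31 ± 0.57, edgeR adjusted p = 0.00226). *Steap3* was at least 10.6-fold higher than the same floor (adjusted p = 0.00852), with 1 LAG-3-low library at 0. *Slc11a1* differed by 0.95 ± 0.19 (adjusted p = 0.00554), without overlap but under the fold minimum, which it passed without WT replicate 2 (1.11) or 3 (1.06) or LAG-3-low replicate 4 (1.005). *Fth1* differed by -0.01 ± 0.27 (adjusted p = 0.985) and *Ftl1* by 0.05 ± 0.30 (0.925). Both WT contrasts share the same 4 WT libraries.

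Per kilobase the ferritins far exceeded the other members. In LAG-3-high microglia *Fth1* reached 9636 ± 684 and *Ftl1* 9129 ± 390 CPM per kilobase (SD, n = 5), a difference within their spread. *Slc11a1* followed with 297 ± 17.9 and *Gpx4* with 226 ± 19.9. Next came *Hmox1* with 66.5 ± 7.98, and then *Slc40a1* (37.5 ± 5.83), *Ncoa4* (35.4 ± 2.25) and *Slc11a2* (34.3 ± 3.37), which did not differ beyond their spread. *Tfrc*, the main door for transferrin iron, stood at 3.87 ± 1.63 and *Steap3* at 0.677 ± 0.302 CPM per kilobase. In whole spinal cord *Tfrc* was higher than in any sorted group, at 26.4 ± 2.04 CPM per kilobase in LAG-3+/+ (n = 3), and *Ftl1* much lower, at 477 ± 48.0, although levels in separately scaled tables are set side by side here without a test.

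The balance of the ferritin chains, given as *Fth1* counts over *Ftl1* counts within each library and as a description without a test, differed between groups. It was 1.01 ± 0.0589 in LAG-3-high (SD, n = 5), 0.783 ± 0.111 in LAG-3-low and 0.850 ± 0.109 in WT. The LAG-3-high libraries ranged from 0.931 to 1.08 and the LAG-3-low libraries from 0.651 to 0.959, so a single pair of values overlapped. In the stage table the ratio was 1.02 ± 0.0368 in P120 LAG-3+/+ and 1.16 ± 0.111 in P120 LAG-3-/- (n = 3 each). At P140 it was 0.724 ± 0.0763 in LAG-3+/+ and 0.890 ± 0.0690 in LAG-3-/-, and every P140 library was below every P120 library. In spinal cord the heavy chain prevailed, with 8.97, 9.77 and 9.57 in LAG-3+/+ and 16.1, 16.7 and 13.5 in LAG-3-/-. Reads of near-identical ferritin pseudogenes could shift between rows: the annotated pseudogene rows held at most 0.0901% of the counts of *Fth1* with its pseudogenes and 0.220% to 1.16% of those of *Ftl1* with its own.

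**Figure D2:**
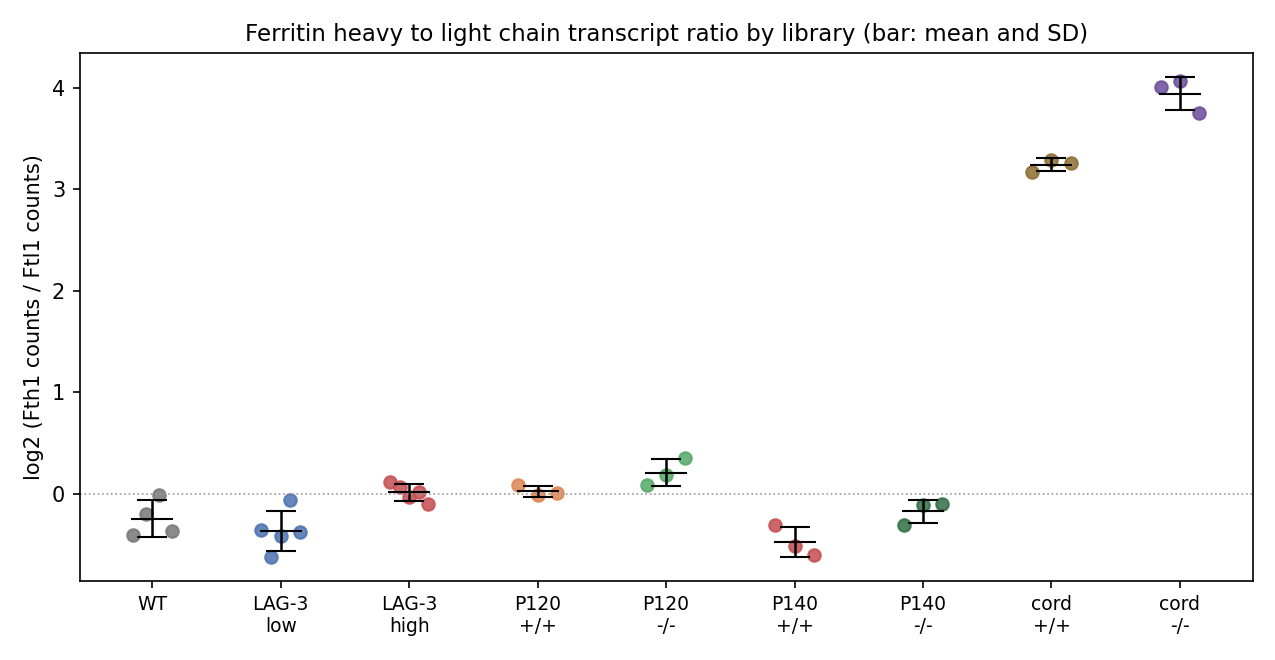
Log2 of the ratio of *Fth1* to *Ftl1* counts (y axis) in the 9 groups (x axis), with 1 point per library and a bar for the mean and SD. The microglial groups lie around 0 with the P140 groups below the P120 groups, and the spinal cord groups lie above 3 on this scale.

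Among all genes with a mean of at least 10 CPM, those whose pattern was most like *Fth1* over the 14 LAG-3-sorted libraries were *Ftl1-ps1* (Pearson's r of log2 CPM 0.98), *Ftl1* (0.97) and *Npc2* (0.97), a carrier of cholesterol in lysosomes. *Ftl1-ps1* is an annotated pseudogene of *Ftl1*, and reads could shift between these rows. The comparison ran over 8918 genes, and the libraries share groups and depth.

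Other genes of iron handling and ferroptosis were described by 4 lists. Of 46 tested genes, 1 rose and 3 fell in LAG-3-high against LAG-3-low, where 3.49% of all genes were called. Among 16 genes of iron transport, *Trf*, transferrin, rose by 1.05 ± 0.30 (adjusted p = 0.0786), from 1786 to 3692 CPM. *Hp*, which binds free haemoglobin and is also a neutrophil granule gene, was called lower, with 226 to 703 CPM in LAG-3-low and 0 to 0.123 CPM in LAG-3-high. None of 11 genes of storage, haem breakdown and iron regulation passed by edgeR, where 2 had an unadjusted p under 0.05 and 1 passed the adjusted p by DESeq2. Of all 16508 genes 1988 had an unadjusted p under 0.05. Of 11 genes of ferroptosis defence *Gsr*, glutathione reductase, was called lower (log2 fold change -3.12 ± 0.51, adjusted p = 0.00369). All 10 neutrophil markers were called lower in the same comparison, and the part of neutrophils in the change of *Gsr* was not tested. Of 8 drivers *Alox5*, a lipoxygenase abundant in neutrophils, was called lower (-2.87 ± 0.85, adjusted p = 0.0961).

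Against WT, 9 of the 46 rose and 7 fell in LAG-3-high, and 8 rose and 7 fell in LAG-3-low, where 27.0% and 21.9% of all genes were called. In the defence list *Slc7a11*, the cystine importer, rose by 2.82 ± 0.94 in LAG-3-high (adjusted p = 0.0459) and by 4.14 in LAG-3-low (0.0135). *Txnrd1*, thioredoxin reductase, rose by 2.08 ± 0.45 and 1.66 ± 0.44 (0.0052 and 0.0204). *Gsr* was called in both, lower in LAG-3-high (-1.46 ± 0.50, 0.05) and higher in LAG-3-low (1.65 ± 0.52, 0.0431). *Slc48a1*, which moves haem out of lysosomes, rose by 1.87 ± 0.43 (0.00745) and 1.39 ± 0.42 (0.0361). *Trf* rose by 1.51 ± 0.32 in LAG-3-high (0.00514), and the zinc and iron importer *Slc39a14* by 3.35 ± 1.11 in LAG-3-low (0.0521). *Hp* was called lower in LAG-3-high and rose by 1.82 ± 0.64 in LAG-3-low (0.063).

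In the storage and regulation list *Pcbp1*, an iron chaperone that loads ferritin, fell by 1.76 on the log2 scale in LAG-3-high (adjusted p = 0.00113) and by 2.28 in LAG-3-low (0.000344). *Bach1*, a repressor of *Hmox1*, fell by 3.27 (0.0044) and by 2.96 (0.0095), from a WT mean of 83.6 ± 89.9 CPM that ranged from 16.6 to 215 CPM. *Nfe2l2*, encoding the stress regulator NRF2, rose by 1.03 ± 0.28 in LAG-3-high (0.0192), and *Hmox2* fell by 1.29 in LAG-3-low (0.00279). Of the drivers *Chac1* and *Alox15* were at 0 in all WT libraries. *Chac1* was at least 7.54-fold higher in LAG-3-high and at least 27.4-fold higher in LAG-3-low, and *Alox15* at least 11.9-fold higher in each, against 3 counts per WT library.

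In LAG-3+/+ microglia, the ferritins, *Slc11a1*, *Hmox1* and *Gpx4* were higher at P140 than at P120, and *Ncoa4*, *Slc40a1* and *Tfrc* were lower. This comparison, across stages of disease within 1 genotype, called 8 of 10 members, 5 higher and 3 lower. In the same comparison 27.4% of 18669 genes passed the threshold of this table, an adjusted p under 0.1 at any fold, 11.9% higher and 15.5% lower (2219 and 2899 genes, or 971 and 4120 without TMM scaling, which moved the median of all genes from -0.22 to -0.70). The members' median was 0.39. The same 8 members had groups that did not overlap, against 42.2% of all genes. The P140 LAG-3+/+ libraries held 18896 to 20489 genes with a count, with TMM factors of 0.734 to 0.855. At P120 LAG-3+/+ libraries held 24136 to 24942 such genes, with factors of 1.06 to 1.16. The P140 LAG-3-/- replicates 1, 2 and 3 held 20260, 23896 and 23459. The part of these library differences in the members' changes was not tested.

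*Ftl1* measured 3958, 3391 and 3199 CPM at P120 and 8035, 15328 and 12196 CPM at P140 in LAG-3+/+. Every P140 library was above every P120 library, and the difference was 1.75 ± 0.33 on the log2 scale (edgeR adjusted p = 0.00736). *Fth1* measured 4198, 3359 and 3217 CPM at P120 and 6502, 10764 and 8067 CPM at P140 (1.23 ± 0.29, adjusted p = 0.0149). *Slc11a1* rose from 400 ± 68.2 to 819 ± 87.8 CPM (SD, n = 3; 1.03 ± 0.22, edgeR adjusted p = 0.0106). *Hmox1* rose from 62.2 ± 8.83 to 140 ± 57.3 CPM (1.17 ± 0.34, edgeR adjusted p = 0.0355), with 204 CPM in P140 replicate 2 and 92.5 and 124 CPM in the others. *Gpx4* rose from 116 ± 13.4 to 243 ± 52.9 CPM (1.07 ± 0.26, edgeR adjusted p = 0.0185).

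The 3 genes that fell have long transcripts. *Ncoa4* measured 157, 152 and 154 CPM at P120 and 106, 62.8 and 87.5 CPM at P140 (log2 fold change -0.85 ± 0.22, edgeR adjusted p = 0.0227). *Slc40a1* measured 110, 201 and 201 CPM at P120 and 103, 25.4 and 81.1 CPM at P140 (-1.29 ± 0.47, edgeR adjusted p = 0.0786), its groups only just apart. *Tfrc* measured 22.2, 58.7 and 40.7 CPM and then 13.7, 5.91 and 15.99 CPM (-1.77 ± 0.61, edgeR adjusted p = 0.0654). *Slc11a2* changed by -0.26 ± 0.25 (adjusted p = 0.518). *Steap3* was near its detection limit here too, with 0.0411 to 3.98 CPM at P120 and 0.0384 to 0.682 CPM at P140 (edgeR adjusted p = 0.173, and a call at 0.0775 without P140 LAG-3+/+ replicate 2).

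Of the 8 calls, 5 held in each of 12 fits that left out 1 library. *Hmox1* lost its call without P120 LAG-3+/+ replicate 1 (adjusted p = 0.102) or 3 (0.122) or P140 LAG-3+/+ replicate 2 (0.138). *Tfrc* lost it without P120 LAG-3+/+ replicate 2 (0.205) or 3 (0.135), or P140 LAG-3+/+ replicate 1 (0.104) or 2 (0.18). *Slc40a1* lost it in 6 fits, with adjusted p up to 0.194. The count of called members was 5 without P120 LAG-3+/+ replicate 3.

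**Figure D3:**
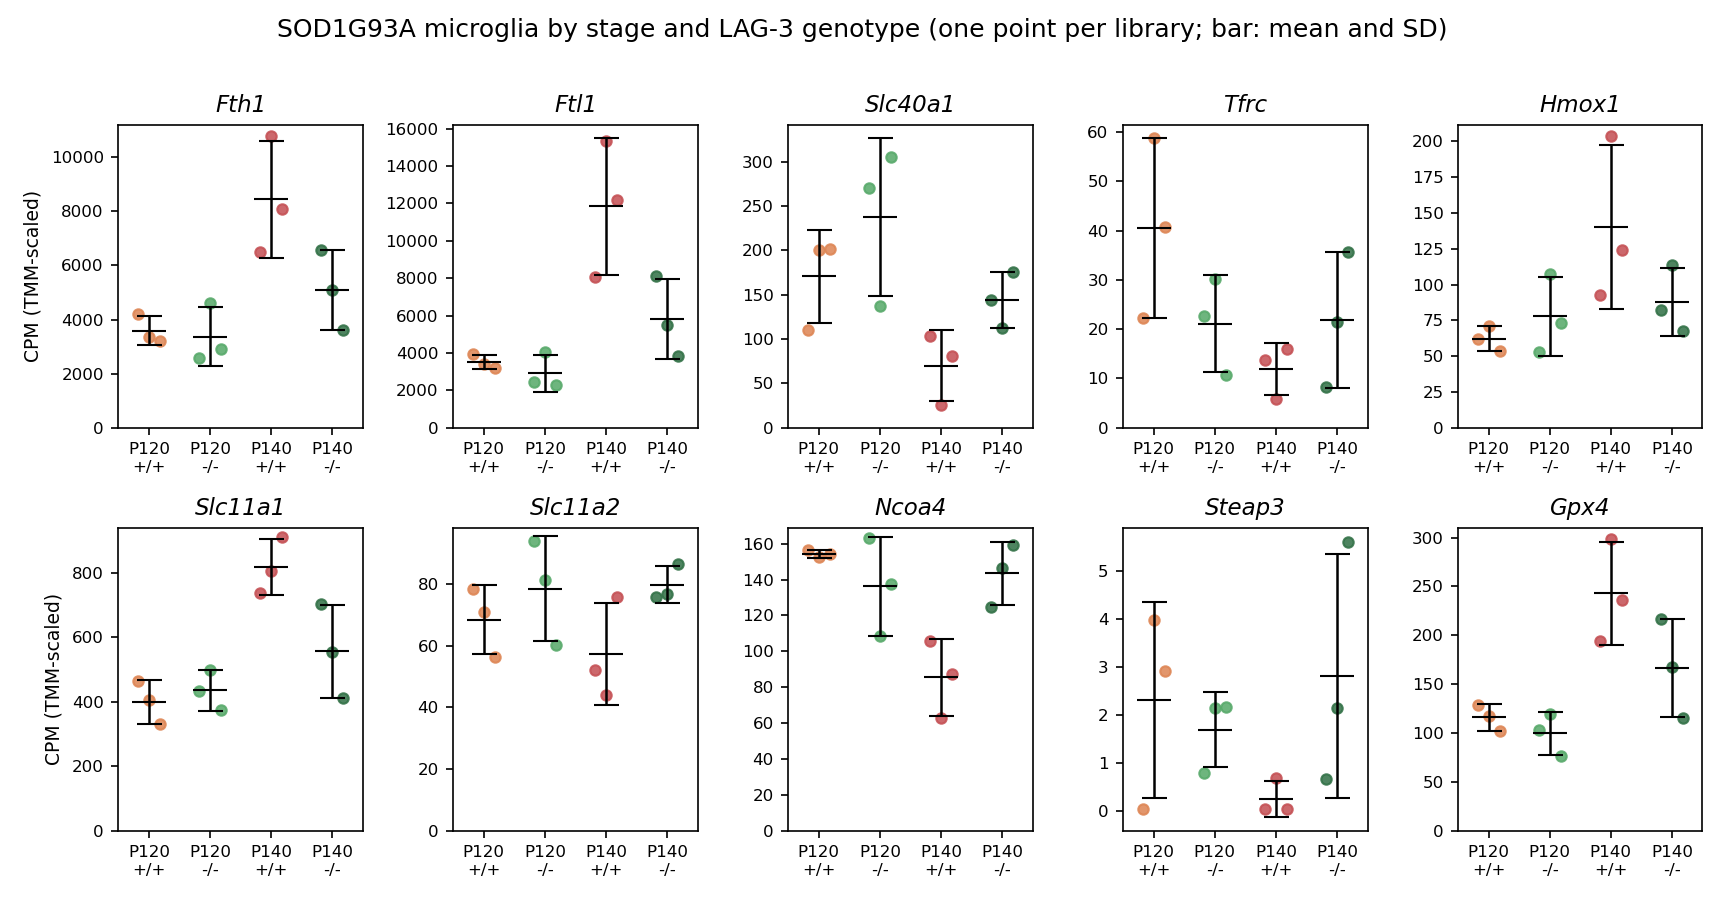
Levels of the 10 genes in CPM after TMM scaling (y axes, linear and scaled per gene) in microglia of SOD1G93A mice by stage and *Lag3* genotype (x axes), with 1 point per library and a bar for the mean and SD. In LAG-3+/+ the 3 *Ftl1* values at P140 lie at 8035 CPM and above and those at P120 at 3958 CPM and below, and the LAG-3-/- libraries at P140 range from 3864 to 8122 CPM.

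The direction of the members went with the length of their transcripts. Over all genes of the P140 and P120 LAG-3+/+ comparison, the median log2 fold change was 0.11 for 4959 genes with a canonical transcript under 1200 bases and -0.86 for 7508 genes of 3000 bases or more. The members that rose have transcripts of 929 (*Fth1*), 959 (*Gpx4*), 969 (*Ftl1*), 1577 (*Hmox1*) and 2601 bases (*Slc11a1*). Those that fell have 3463 (*Slc40a1*), 4486 (*Ncoa4*) and 4895 bases (*Tfrc*). After a correction for length and GC content in each library, 3 of the 8 calls were left, and the median of all genes was -0.39. Of all 18669 genes 3357 were then called, 1190 higher and 2167 lower.

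With this correction *Ftl1* still rose, by 1.13 (adjusted p = 0.0147), and so did *Slc11a1*, by 0.76 (0.0224), while *Slc40a1* still fell (-1.34, 0.0721). *Fth1* changed by 0.28 (0.371), *Hmox1* by 0.13 (0.824), *Gpx4* by 0.51 (0.104), *Ncoa4* by -0.43 (0.133) and *Tfrc* by -1.24 (0.171), none of them called. In LAG-3-high against LAG-3-low the lengths lay the other way. There the median was -0.32 for short and 0.04 for long transcripts, and the corrected changes were 1.64 for *Fth1* and 1.24 for *Ftl1*, past both thresholds, and 0.96 for *Slc11a2*, under the fold minimum. Against WT, where short transcripts had medians of -0.98 in LAG-3-high and -0.68 in LAG-3-low, the correction raised the short members. *Fth1* changed by 2.51 and *Ftl1* by 1.98 in LAG-3-high, *Gpx4* became called there (1.09, adjusted p = 0.000693), and *Slc11a2* dropped to 0.81. In LAG-3-low against WT the corrected changes were 0.87 for *Fth1* (adjusted p = 0.00129) and 0.74 for *Ftl1* (0.0105), under the fold minimum.

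**Figure D4:**
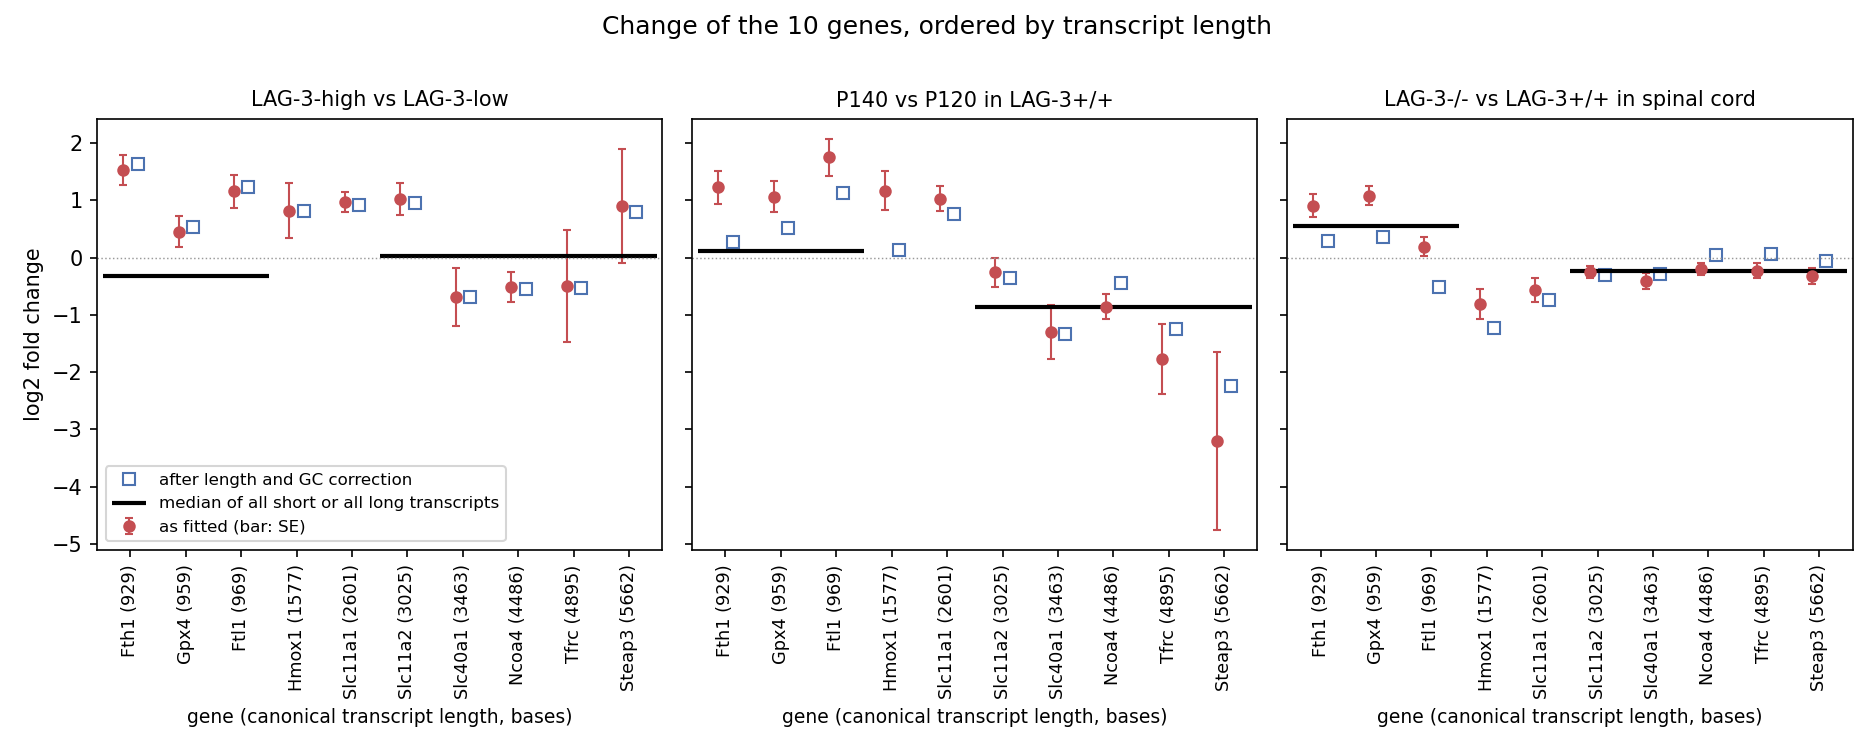
Log2 fold change of the 10 genes (y axis), ordered by canonical transcript length in bases (x axis), in LAG-3-high against LAG-3-low, P140 against P120 in LAG-3+/+ and LAG-3-/- against LAG-3+/+ spinal cord. Filled points with SE bars are as fitted, open squares are corrected for length and GC content, and black lines are the medians of all transcripts under 1200 bases or of 3000 bases and more, at 0.11 and -0.86 in the middle panel.

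Neutrophil genes also varied in the stage table, within the P140 groups and between the genotypes at P120. Their sum was 1747 to 2541 CPM in P120 LAG-3+/+, 2.68 to 6.58 CPM in P120 LAG-3-/-, 3480, 554 and 3.84 CPM in P140 LAG-3+/+ and 4.02, 847 and 4524 CPM in P140 LAG-3-/-. In the P140 LAG-3+/+ libraries, in the same order, *Fth1* measured 6502, 10764 and 8067 CPM and *Ftl1* 8035, 15328 and 12196 CPM. The microglial list summed to 12003 to 15594 CPM in P140 LAG-3+/+ and 12596 to 15268 CPM in P120 LAG-3+/+. The part of neutrophils in the differences between stages or between genotypes was not tested.

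In LAG-3-/- microglia no member passed the test between P140 and P120. No gene of the table did by edgeR (0.00% of 18669), where 1658 genes had an unadjusted p under 0.05, and DESeq2 called 358 higher and 91 lower. Of the members *Ftl1* (unadjusted p = 0.00973, edgeR adjusted p = 0.475) and *Gpx4* (0.74 ± 0.26, adjusted p = 0.504) had an unadjusted p under 0.05, and DESeq2 called none. *Ftl1* measured 2432, 4037 and 2260 CPM at P120 and 8122, 5474 and 3864 CPM at P140, so the groups overlapped. *Fth1* measured 2580, 4605 and 2895 CPM and then 6583, 5084 and 3599 CPM (0.60 ± 0.28, edgeR adjusted p = 0.576). *Ncoa4*, with 163, 108 and 137 CPM and then 125, 147 and 160 CPM, differed by 0.07 ± 0.22 (edgeR adjusted p = 0.976).

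Whether the stage effect differed between genotypes was asked by the interaction term. No member passed it by edgeR, where 0.171% of all genes did (30 higher, 2 lower). *Ncoa4* (0.93 ± 0.31, adjusted p = 0.249) and *Slc11a1* (-0.68 ± 0.31, adjusted p = 0.362) had an unadjusted p under 0.05, and DESeq2 called none. Of all 18669 genes 2541 had an unadjusted p under 0.05, and DESeq2 called 1301. Without P140 LAG-3-/- replicate 1 *Ncoa4* passed, with 1.02 and an adjusted p of 0.0997. For the ferritins the terms were -0.63 ± 0.40 (*Fth1*, adjusted p = 0.511) and -0.75 ± 0.45 (*Ftl1*, 0.488), so a difference between the genotypes in the stage effect was not detectable in these libraries.

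At P120 loss of LAG-3 was not followed by a detectable change of any member. None passed by edgeR, none had an unadjusted p under 0.05 and DESeq2 called none, where 0.0107% of all genes (2 genes, both lower) were called by edgeR. *Fth1* differed by -0.10 ± 0.28, *Ftl1* by -0.27 ± 0.32, *Hmox1* by 0.32 ± 0.34, *Slc11a1* by 0.12 ± 0.22 and *Gpx4* by -0.22 ± 0.26 on the log2 scale. The lowest unadjusted p was that of *Tfrc*, 0.144, with 22.7, 30.1 and 10.7 CPM in LAG-3-/- and 22.2, 58.7 and 40.7 CPM in LAG-3+/+. The neutrophil sums of these groups were far apart, 2.68 to 6.58 CPM in LAG-3-/- and 1747 to 2541 CPM in LAG-3+/+. Of the 10 neutrophil genes 0 were called by edgeR, and their part in this comparison was not tested.

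At P140, *Ftl1* was lower and *Ncoa4* higher in LAG-3-/- than in LAG-3+/+ microglia. These were 2 of 10 members, against 10.2% of all genes called (1347 higher and 561 lower, 2048 and 243 without TMM scaling, or 1275 and 837 with RLE size factors). *Ftl1* measured 8035, 15328 and 12196 CPM in LAG-3+/+ and 8122, 5474 and 3864 CPM in LAG-3-/-, with 1 LAG-3-/- library just above the lowest LAG-3+/+ library. It differed by -1.03 ± 0.32 on the log2 scale, with an adjusted p of 0.0918 in edgeR. *Ncoa4* measured 106, 62.8 and 87.5 CPM in LAG-3+/+ and 125, 147 and 160 CPM in LAG-3-/-, without overlap (0.75 ± 0.22, edgeR adjusted p = 0.0793). Each call held in only 3 of 12 fits that left out 1 library, with adjusted p from 0.0222 to 0.284 for *Ftl1* and from 0.0383 to 0.247 for *Ncoa4*. After the length and GC correction the changes were -0.55 (adjusted p = 0.209) and 0.41 (0.223), and neither was called. The median of all 18669 genes was then 0.28, and 892 were called, 665 higher and 227 lower. Fitting only the groups compared called 0 of 15091 genes.

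The other members did not pass at P140 by edgeR. *Fth1* measured 6583, 5084 and 3599 CPM in LAG-3-/- against 6502, 10764 and 8067 CPM in LAG-3+/+ (log2 fold change -0.73 ± 0.29, edgeR adjusted p = 0.153). *Slc11a1* measured 703, 556 and 412 CPM against 737, 808 and 912 CPM, without overlap (-0.56 ± 0.22, edgeR adjusted p = 0.152). *Slc40a1* measured 144, 112 and 175 CPM against 103, 25.4 and 81.1 CPM, without overlap in the other direction (1.04 ± 0.47, edgeR adjusted p = 0.202). Of the 10 members 3 did not overlap, against 21.1% of all genes. DESeq2 passed 5 members at an adjusted p under 0.1, *Ftl1*, *Ncoa4*, *Fth1*, *Slc11a1* and *Steap3*, where it called 4281 of all 18669 genes. Without P140 LAG-3-/- replicate 1 edgeR passed 5, *Fth1*, *Ftl1*, *Slc11a1*, *Gpx4* and *Ncoa4*. The count over all genes in that fit is not given here. In this comparison the median was -0.14 for short and 0.64 for long transcripts.

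Over the 12 stage libraries the genes most like *Ncoa4* among 8675 were *Smg8* (Pearson's r 0.97), *Marcksl1* (0.97) and *Irak1* (0.96), as a description over libraries of shared groups. *Ncoa4* overlaps *Timm23* on the opposite strand. In all, 7 members overlap a gene annotated on the opposite strand, and the kit used for the sorted cells does not mark strand, so reads of such a pair cannot be told apart there.

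Of the 46 other iron and ferroptosis genes tested in the stage table, 10 rose and 8 fell from P120 to P140 in LAG-3+/+, where 27.4% of all genes were called. In transport, 4 of 14 rose and 2 fell. *Trf* rose by 0.85 ± 0.20 (adjusted p = 0.0142) and the folate and haem carrier *Slc46a1* by 1.04 ± 0.25 (0.0175), while *Lrp1*, the receptor that clears haem bound to haemopexin, fell by 1.49 (0.00858). In storage and regulation, 3 of 11 rose and 2 fell. *Blvra*, biliverdin reductase, rose by 1.59 ± 0.30 (0.00744) and *Hmox2* by 1.12 ± 0.28 (0.0201), and *Ireb2*, encoding iron regulatory protein 2, fell by 2.94 (0.0225). After the length and GC correction the changes were 0.46 (0.149) for *Blvra* and -0.26 (0.263) for *Lrp1*, and *Hmox2* still rose (2.20, 0.0147). Corrected changes of *Trf*, *Slc46a1* and *Ireb2* are not given here.

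In ferroptosis defence 2 of 11 rose and 3 fell. *Slc3a2*, the partner of *Slc7a11* in the cystine importer, rose by 1.39 ± 0.26 (adjusted p = 0.00704), *Vkorc1l1*, a vitamin K reductase, fell by 2.03 (0.00921) and *Txnrd1* by 1.49 (0.0309). Of 10 drivers 1 rose and 1 fell. *Acsl4*, which loads membranes with oxidizable fatty acids, fell by 1.54 (0.00529), and *Sat1*, an enzyme of polyamine breakdown, rose by 1.09 ± 0.24 (0.0116). Corrected for length and GC content, *Acsl4* fell by 0.90 (0.0126) and *Sat1* changed by -0.14 (0.515). Corrected changes of *Slc3a2*, *Vkorc1l1* and *Txnrd1* are not given here.

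At P140, 5 of these 46 genes were higher and 3 lower in LAG-3-/- than in LAG-3+/+, where 10.2% of all genes were called. *Trf* fell by 0.74 (adjusted p = 0.0594), *Hfe* by 0.89 (0.0625) and *Slc3a2* by 0.81 (0.0899). *Lrp1* rose by 0.97 ± 0.29 (0.0822), *Aco1*, encoding iron regulatory protein 1, by 1.43 ± 0.42 (0.0782), *Vkorc1l1* by 1.55 ± 0.40 (0.0573) and *Acsl4* by 0.82 ± 0.23 (0.0685). After the length and GC correction *Trf* (-0.53, 0.0729) and *Hfe* (-1.14, 0.0576) were still called and the other 5 named here were not. None of the 46 was called by edgeR between stages in LAG-3-/-, between genotypes at P120 or in the interaction. An unadjusted p under 0.05 was reached by 6, 2 and 8 of them, and DESeq2 passed 2, 1 and 2. Over all 18669 genes the counts were 1658, 551 and 2541 at that unadjusted p, and 449, 134 and 1301 by DESeq2.

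In whole spinal cord at P140, *Gpx4* was higher in LAG-3-/- than in LAG-3+/+ mice, and it was the only member called. It measured 199, 206 and 238 CPM in LAG-3+/+ and 565, 442 and 353 CPM in LAG-3-/-, without overlap. Its change was 1.08 ± 0.17 on the log2 scale (edgeR adjusted p = 0.0008). This was 1 of 10 members, against 7.52% of all genes called, 4.37% higher and 3.15% lower (773 and 558 genes, or 485 and 830 without TMM scaling, which moved the median of all genes from 0.00 to -0.13). Without TMM scaling the change of *Gpx4* was 0.94, and without LAG-3-/- replicate 1 it was 0.89 (adjusted p = 0.000779), both under the fold minimum. After the length and GC correction it was 0.36 (0.083).

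At any fold, 6 members had an adjusted p under 0.1, against 47.1% of all genes, 2 higher and 4 lower. *Fth1* measured 4264, 4012 and 4793 CPM in LAG-3+/+ and 10710, 7589 and 6261 CPM in LAG-3-/-. Its groups did not overlap, and the log2 fold change of 0.91 ± 0.21 (edgeR adjusted p = 0.00547) passed the fold minimum only without LAG-3-/- replicate 3, at 1.06. *Ftl1* measured 475, 411 and 501 CPM in LAG-3+/+ and 667, 455 and 464 CPM in LAG-3-/-, with overlap (0.19 ± 0.16, edgeR adjusted p = 0.376). *Hmox1* measured 40.3, 19.4 and 34.8 CPM and then 20.8, 15.2 and 18.01 CPM (-0.81 ± 0.26, edgeR adjusted p = 0.0417). It was called at -1.07 without LAG-3+/+ replicate 2, its lowest LAG-3+/+ library.

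*Slc11a1* averaged 32.6 ± 7.10 CPM in LAG-3+/+ and 22.1 ± 5.16 CPM in LAG-3-/- cord (SD, n = 3; log2 fold change -0.57 ± 0.21, edgeR adjusted p = 0.0544). *Slc40a1* averaged 12.1 ± 1.23 and 9.15 ± 0.683 CPM (-0.41 ± 0.14, edgeR adjusted p = 0.0411). *Slc11a2* measured 51.0, 45.8 and 45.8 CPM and then 36.6, 40.5 and 43.0 CPM (-0.25 ± 0.10, edgeR adjusted p = 0.0818). *Tfrc*, *Ncoa4* and *Steap3* had log2 fold changes of -0.23, -0.20 and -0.31 that did not pass. Groups did not overlap for 6 members, 2 higher and 4 lower, against 51.6% of all genes. The members' median was -0.24.

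**Figure D5:**
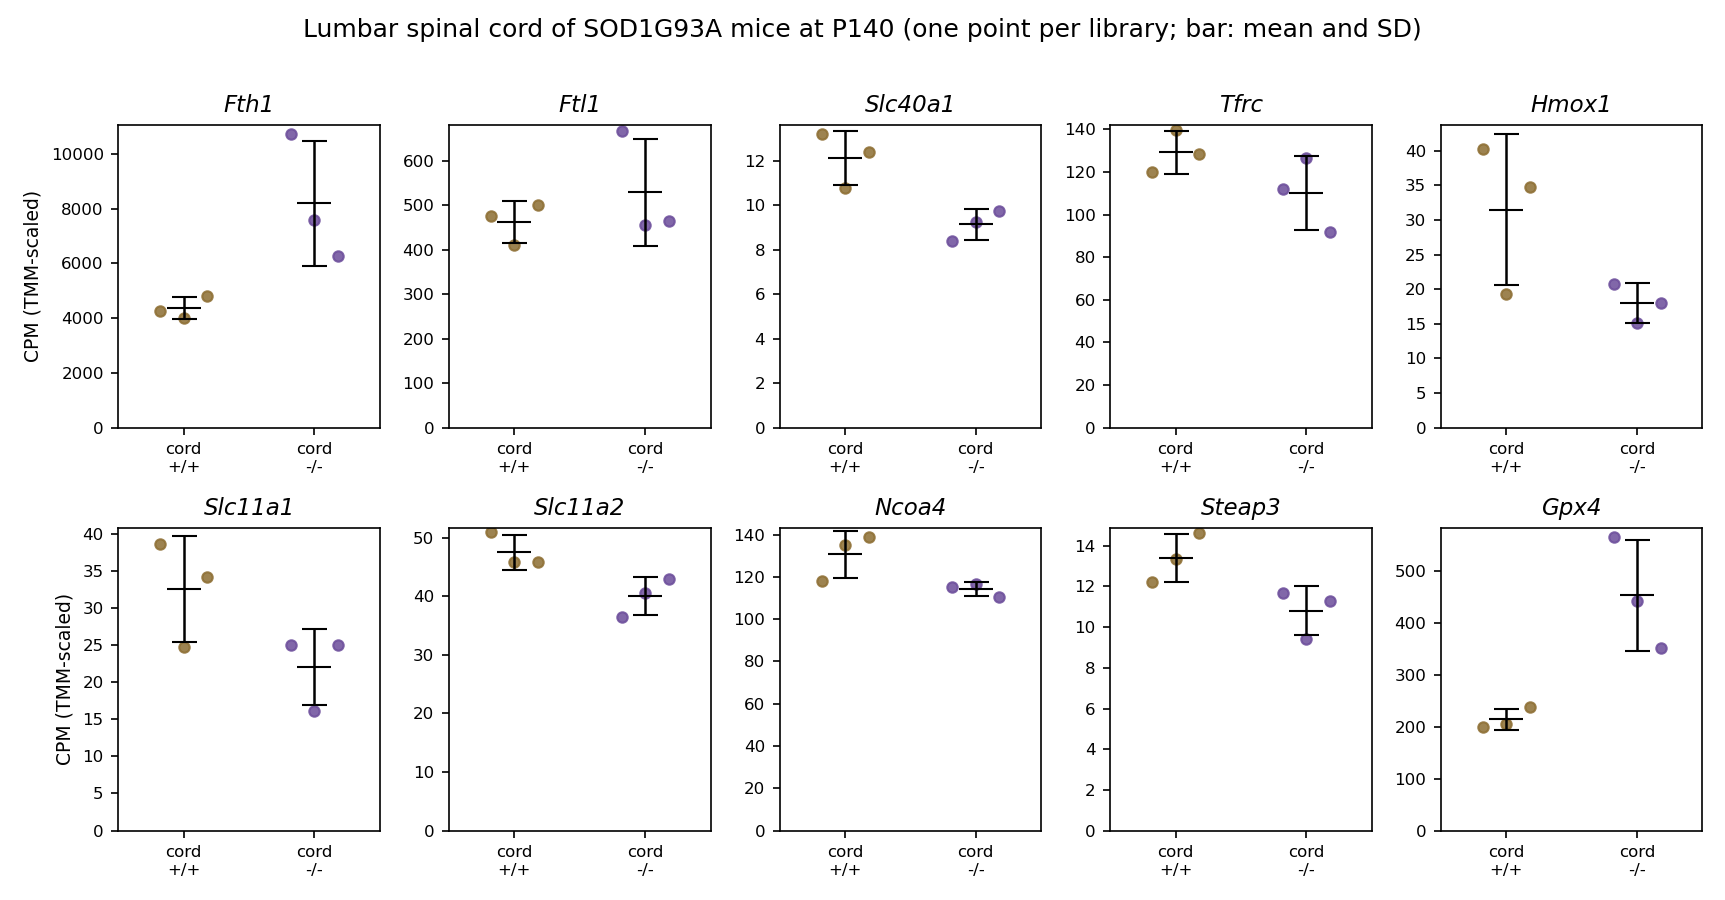
Levels of the 10 genes in CPM after TMM scaling (y axes, linear and scaled per gene) in lumbar spinal cord of SOD1G93A mice at P140, with LAG-3+/+ and LAG-3-/- genotypes (x axes), with 1 point per library and a bar for the mean and SD. *Gpx4* lies at 199 to 238 CPM in LAG-3+/+ and 353 to 565 CPM in LAG-3-/-, and *Fth1* at 4012 to 4793 and 6261 to 10710 CPM.

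Changes differed by transcript length, and summed markers of several cell types moved with the cord groups. Short transcripts had a median log2 fold change of 0.55 and long ones of -0.23, and after the length and GC correction 281 genes were called higher and 518 lower. The corrected changes were 0.29 for *Fth1* (adjusted p = 0.243), -0.51 for *Ftl1* (0.0218) and -1.23 for *Hmox1* (0.0203), the last past both thresholds. The list of 6 oligodendrocyte markers summed to 16886, 16796 and 18330 CPM in LAG-3+/+ and to 33225, 27525 and 23780 CPM in LAG-3-/-. Of these 6 genes 1 was called higher, and 4 had an edgeR adjusted p under 0.1 at any fold. The 7 microglial markers summed to 730.4, 594 and 714 CPM and then to 624.7, 460.4 and 530.0 CPM. The 5 astrocyte markers summed to 11720, 9965 and 11691 CPM and then to 10355, 6098 and 8441 CPM. No microglial or astrocyte marker was called, and 4 of 7 and 2 of 5 had an edgeR adjusted p under 0.1 at any fold. The 8 erythroid markers summed to 31.5, 10.9 and 22.6 CPM and then to 32.7, 165 and 31.1 CPM, and 1 of the 5 tested was called higher. The 10 neutrophil markers summed to 6.89, 3.61 and 7.53 CPM and then to 7.55, 19.8 and 4.75 CPM, and 1 of the 4 tested was called higher. The part of these cells in the members' differences was not tested.

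Of 49 other iron and ferroptosis genes tested in the cord, 1 was called, and 30 had an adjusted p under 0.1 at any fold, where 7.52% and 47.1% of all genes did. *Slc39a14* was lower in LAG-3-/- cord, where its change was -1.06 ± 0.20 (edgeR adjusted p = 0.00309), and -0.80 (0.0317) after the length and GC correction, under the fold minimum.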

How the data were processed

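RNA-seq libraries of sorted microglia (14 by LAG-3, 12 by genotype and stage) and of lumbar spinal cord (6) were analysed. Per the submitters' processing notes and the study's methods, reads were trimmed with Trim Galore 0.6.7, quantified with Salmon 1.9.0 on GRCm39 and summed per gene with tximport in R 4.2.1; the annotation release is not given in the sources used here. The authors deposited estimated counts per Ensembl gene, neither whole nor normalized. They were rounded to whole numbers here. The kit of the sorted cells (SMART-seq mRNA HT LP) amplifies full-length cDNA; the methods name NEBNext Ultra II Directional for the cord, but the labels of the cord samples repeat the kit of the sorted cells, so the cord kit and whether it marked strand are uncertain.

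Symbols, coordinates and lengths are those of GENCODE vM39 on GRCm39, from which 71, 66 and 71 identifiers were absent. All libraries of a table entered 1 fit in edgeR 4.0.16 (R 4.3.3). Low genes were removed by filterByExpr at a minimum count of 10 and a minimum total of 15, and libraries were scaled by TMM. The quasi-likelihood test was run with robust = TRUE, and its p-values were adjusted by Benjamini-Hochberg over 16508, 18669 and 17702 genes. Calls needed an adjusted p under 0.1 and, for the LAG-3-sorted and cord tables only, a log2 fold change of more than 1 in size. The study's model was fitted with DESeq2, an alternative here (1.42.0). The length and GC correction subtracted, in each library, splines with 5 degrees of freedom for each. Depth was 9403286 to 49512341 counts per library, and a group at 0 was set to 3 counts per library for a lower bound on a fold. The fits were tested on simulated data. The members, the gene lists and the tests were chosen with earlier results of these data known. Named list genes are the up to 3 called per list and comparison with the smallest adjusted p. Replicate numbers were not taken as pairs, because nothing in the labels ties them to a shared animal or day; whether the sorted LAG-3-low and LAG-3-high cells of 1 number came from the same mice is not given in the sources used here. 1 gene of a marker list is not reported here and was left out of its sums.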

Additional observations from a re-analysis of the deposited data

Results flagged for a closer look

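In 29 groups of 4 or 5 libraries the levels of single genes were checked for a library far from the rest by Dixon's ratio, and 2 stood out, where chance gives about 1 in 20. *Slc11a2* reached 77.8 CPM in WT replicate 3, against 31.1 to 35.7 CPM in the other 3 WT libraries. *Ncoa4* reached 314 CPM in LAG-3-low replicate 3, against 183 to 217 CPM in the other 4 LAG-3-low libraries.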

How the results depend on the processing

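Beside the fits that left out a library, 103 of 118 alternative counts of called members or ferritin ratios stayed close to the reported value, and 188 of 230 alternative values of called members stayed called, with 42 losing the call and none reversing. LAG-3-high against LAG-3-low called 1 member without TMM scaling and 1 with a replicate block, *Fth1* in both. Over all 16508 genes these fits called 668 and 391. With the block *Ftl1* (1.16, edgeR adjusted p = 0.104) and *Slc11a2* (1.02, edgeR adjusted p = 0.175) were past the fold minimum and not the adjusted p. P140 against P120 in LAG-3+/+ called 3 with the length and GC correction and 4 with it and the replicate block. Over all 18669 genes those fits called 3357 and 2709. LAG-3-/- against LAG-3+/+ at P140 called 0 at an adjusted p under 0.05, with the replicate block and with listed sex as covariate. It also called 0 with the length and GC correction alone or with the block, and when fitting only the groups compared. It called 1 above an absolute log2 fold change of 1, 1 without a filter and 5 with DESeq2. Of all 18669 genes, 814 were called with the block and 1346 with sex. The length and GC correction called 892 alone and 101 with the block. Fitting only the groups compared called 0 of 15091 genes, the fit without a filter 1386 of 38695 and DESeq2 4281 of 18669. All-gene counts at the stricter adjusted p and the fold minimum are not given here. The cord called 6 without a fold minimum and 0 without TMM scaling, where 8330 and 1315 of all 17702 genes were called. Leaving out 1 library gave 1 to 4 members (LAG-3-high against LAG-3-low), 5 to 7 (LAG-3-high against WT), 2 to 3 (LAG-3-low against WT), 5 to 8 (P140 against P120 in LAG-3+/+), 0 to 5 (genotypes at P140), 0 to 1 (interaction) and 0 to 2 (cord), and 0 throughout in the other 2. The counts over all genes in the fits that left out 1 library are not given here, and the cause was not tested.

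Replicate numbers did not pair the libraries: deviations of same-numbered libraries correlated across genes from -0.02 to 0.07 (LAG-3-sorted), -0.12 to 0.07 (stage) and -0.03 to 0.02 (cord). Members that were not called changed sign in 18 of 88 values in LAG-3-low against WT (*Fth1*, *Gpx4*, *Slc11a2*). All-gene calls in LAG-3-high against LAG-3-low were 576, but 1450 when only these groups were fitted, 988 with DESeq2 and 1132 without WT replicates 2 and 4, a choice made after seeing the data.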
